A study of Mus musculus with 6 samples.

Results

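The trophectoderm genes described here are 10 genes, Cdx2, Eomes, Elf5, Tfap2c, Gata3, Hand1, Krt8, Krt18, Ascl2 and Plac1, chosen by name from general knowledge of the first placental lineage. They have 20 probe sets among the 45037 non-control probe sets measured on 6 Affymetrix mouse arrays, where a probe set is a group of short probes read out as 1 intensity value. The arrays hold RNA of 3 mouse embryonic stem cell clones of a 129/B6 hybrid background, with and without 4-hydroxytamoxifen (OHT), which was applied at 0.8 µM for 24 hours so that Rybp would be lost. The 4 groups are Yaf2kd OHT+ (knockdown of Yaf2, Rybp-depleted, clones 3086 and 3087), Yaf2kd OHT- (the same 2 clones, knockdown of Yaf2 alone), Yaf2wt OHT+ (wild-type Yaf2, Rybp-depleted, clone 3031) and Yaf2wt OHT- (clone 3031, neither lost). Every clone grew in serum with the leukaemia inhibitory factor preparation ESGRO, on feeder fibroblasts or on gelatin, without a record here of which sample had which. The labels call the OHT+ arrays RYBP knockouts, and the sources used here name neither the allele nor the recombinase through which OHT acts. No treated clone that keeps Rybp is among the samples, so the action of OHT itself and the loss of Rybp cannot be told apart, and neither can Yaf2 status and clone, since Yaf2wt is 1 clone.

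The trophectoderm is the outer epithelium of the blastocyst and gives rise to the trophoblast of the placenta. Cdx2, Eomes, Elf5, Tfap2c and Gata3 encode transcription factors that set up this lineage or keep trophoblast stem cells dividing, Ascl2 and Hand1 encode factors of the later spongiotrophoblast and giant cells, Krt8 and Krt18 encode the paired keratins of simple epithelia, and Plac1 encodes a placental protein. Mouse embryonic stem cells descend from the inner cell mass and normally make little trophoblast, and Rybp and Yaf2 are alternative subunits of Polycomb repressive complex 1, which represses many developmental genes.

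The labels were checked on the targeted genes. The 2 Rybp probe sets, both also annotated to the pseudogene Rybp-ps, moved in opposite directions with OHT. The first was at 101, 53.9 and 102 on the OHT+ arrays of clones 3086, 3087 and 3031, against 1785, 2262 and 1997 on their OHT- arrays. The second was at 3443, 2796 and 3247 on the OHT+ arrays, against 211, 336 and 179.9 on the OHT- arrays. The brighter Yaf2 probe set was at 297, 278, 293 and 238 on the Yaf2kd arrays, against 769 and 816 on the Yaf2wt arrays. All 6 arrays share a median intensity of 102, and the median standard deviation (log2) between the 2 Yaf2kd clones within a group was 0.74 for probe sets with a mean below that level and 0.18 for the others, so a probe set below 102 is called dim here and its differences are imprecise. Embryonic stem cell markers (Pou5f1, Nanog, Sox2 and 5 more) all had means above 102, with summed intensities of 96770 to 101505 on OHT+ arrays, against 89033 to 94056 on OHT- arrays. The brightest genes weigh most in such sums, here Dppa5a with means of 37949 on OHT+ and 36080 on OHT- arrays. Nanog, Sox2, Zfp42, Klf4 and Tdgf1 also had higher means with OHT. Pou5f1 (7020 against 8060) and Utf1 (5980 against 7215) had lower ones. The summed feeder fibroblast markers were at 1996 to 2821 on OHT+ arrays, against 1508 to 1963 on OHT- arrays, with 4 of 10 genes dim on average. Every feeder gene but the dim Twist2 had a higher mean with OHT, and none was called. Pdgfrb (means of 199 against 78.5), Fbln2 (543 against 351) and Col1a2 (410 against 294) were higher without overlap. The summed primitive endoderm markers were at 5866 to 6613 on OHT+ arrays, against 5389 to 5853 on OHT- arrays, with 3 of 8 genes dim. Lamb1 (means of 4015 with OHT and 3623 without it) makes up most of the endoderm sum. Lama1 and Amn were also higher, while Dab2 (411 against 468) and the dim Foxa2 (45.8 against 68.5) were lower with OHT. The summed mesoderm markers were at 325 to 593 on OHT+ arrays, against 323 to 379 on OHT- arrays, with 6 of 7 measured genes dim. By Yaf2 status, the summed stem cell markers were at 89033 to 97726 on Yaf2kd and 94056 to 101505 on Yaf2wt arrays. Nanog, Sox2, Zfp42, Tdgf1 and Klf4 (means of 2766 against 4273) were lower on Yaf2kd arrays, and Pou5f1, Dppa5a and Utf1 higher. The summed feeder markers were at 1746 to 2821 on Yaf2kd and 1508 to 1996 on Yaf2wt arrays. All feeder genes but Twist2 had higher Yaf2kd means, such as Col1a1 (232 against 146). No marker value was 0, and the part of these shifts in the results was not tested.

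Of the lineage regulators, Cdx2, Elf5 and Gata3 were dim on every array, Eomes lay around the array median and Tfap2c was bright. Of the 20 probe sets, 7 were below 102 on all 6 arrays (both for Cdx2, both for Elf5, 1 for Gata3, 1 of the 2 for Hand1 and that of Plac1), 8 were above 102 on all 6 (3 for Tfap2c, 3 for Krt8, 1 for Krt18 and 1 of the 3 for Ascl2), and the other 5 lay on both sides (both for Eomes, 1 for Hand1 and 2 for Ascl2). As a check of the name given to the group, 6 of the 10 genes thus lack a probe set that is bright throughout, among them Cdx2 and Elf5, while the 4 that have one include the keratins, which other epithelia also make. In these bulk samples a signal from fewer cells and a lower signal per cell cannot be told apart.

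**Figure D1:**
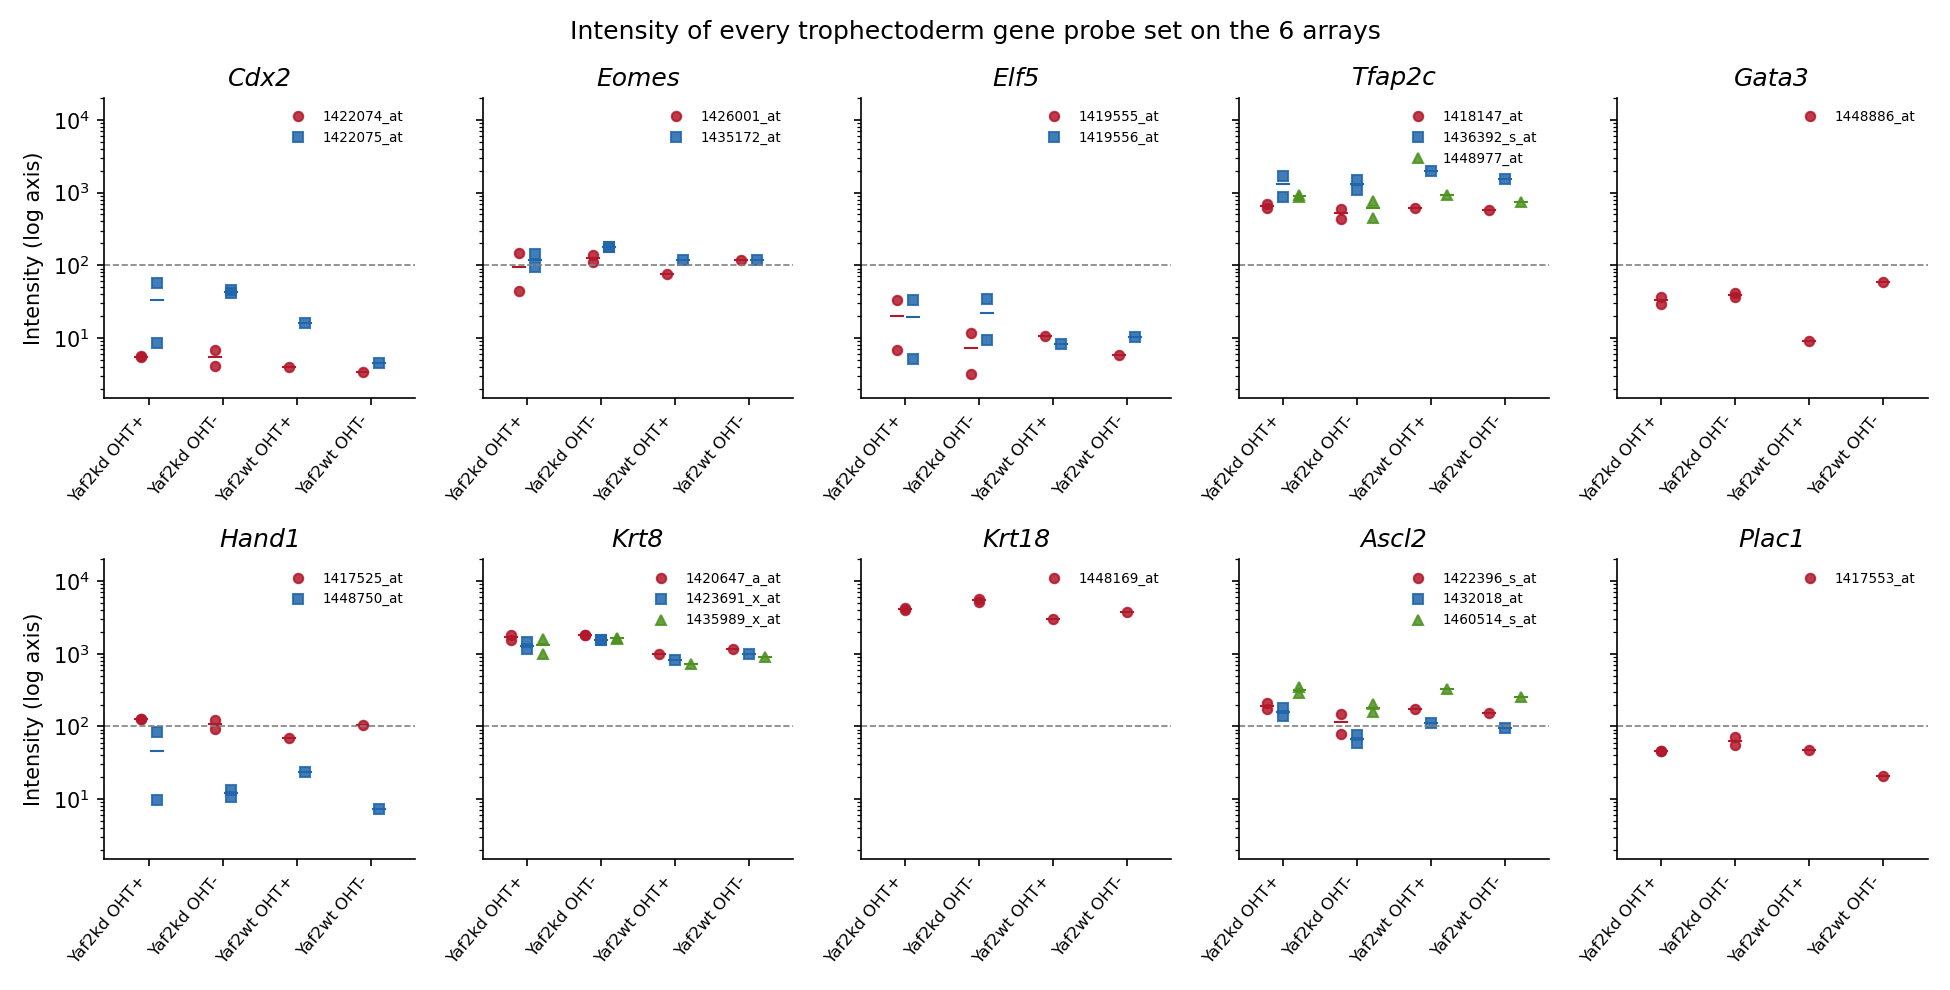
Intensity (log axis) of each probe set of the 10 genes in the 4 groups; every symbol is 1 array, symbol shape and colour mark the probe set, short bars are group means, and the dashed line is the array median of 102. Cdx2, Elf5, Gata3 and Plac1 stay under the line on every array, and Krt8, Krt18 and Tfap2c stay above it.

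Across the 20 probe sets limma called 0 in any comparison, at a Benjamini-Hochberg adjusted p under 0.05 over all 45037 probe sets. In the OHT effect over the 3 clones, 0.140% of all probe sets were called, in the Yaf2 effect 0%, in the combined loss (Yaf2kd OHT+ cells set against Yaf2wt OHT- cells) 0.00444%, and in the difference of the OHT effects 0%. The knocked-down gene Yaf2 itself did not pass in the Yaf2 effect. Its probe set 1429839_a_at had -1.52 ± 0.16 (log2 ± SE, limma adjusted p 0.163, the lowest of all probe sets) and 1423399_a_at had -1.41 ± 0.17 (adjusted p 0.167). In the combined loss the only probe sets called were those of Rybp, and those of Yaf2 did not pass there either. In the difference of the OHT effects the adjusted p was at its upper limit for every probe set. The lack of calls in the Yaf2 effect, the combined loss and the difference therefore does not show that the members were unchanged. At an unadjusted p under 0.05, the members numbered 5 in the OHT effect (3598 of all probe sets), 4 in the Yaf2 effect (4032), 1 in the combined loss (2752) and 0 in the difference (1077). The median member difference with OHT was 0.0282 (log2), with 10 probe sets higher and 10 lower, against a median of -0.00731 over all probe sets. For the Yaf2 effect the median was 0.47 with 14 higher and 6 lower, against 0.00202 over all probe sets, and over the 8 member probe sets above the array median on all 6 arrays it was 0.24, against 0.0164 over all 19558 such probe sets. None of these 8 lay near 0.24. Those of Krt8 and Krt18 were at 0.51 to 0.83, and those of Tfap2c and Ascl2 at -0.47 to -0.0351, so the median does not describe a common shift. The member differences described from here on are therefore values that did not pass.

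**Figure D2:**
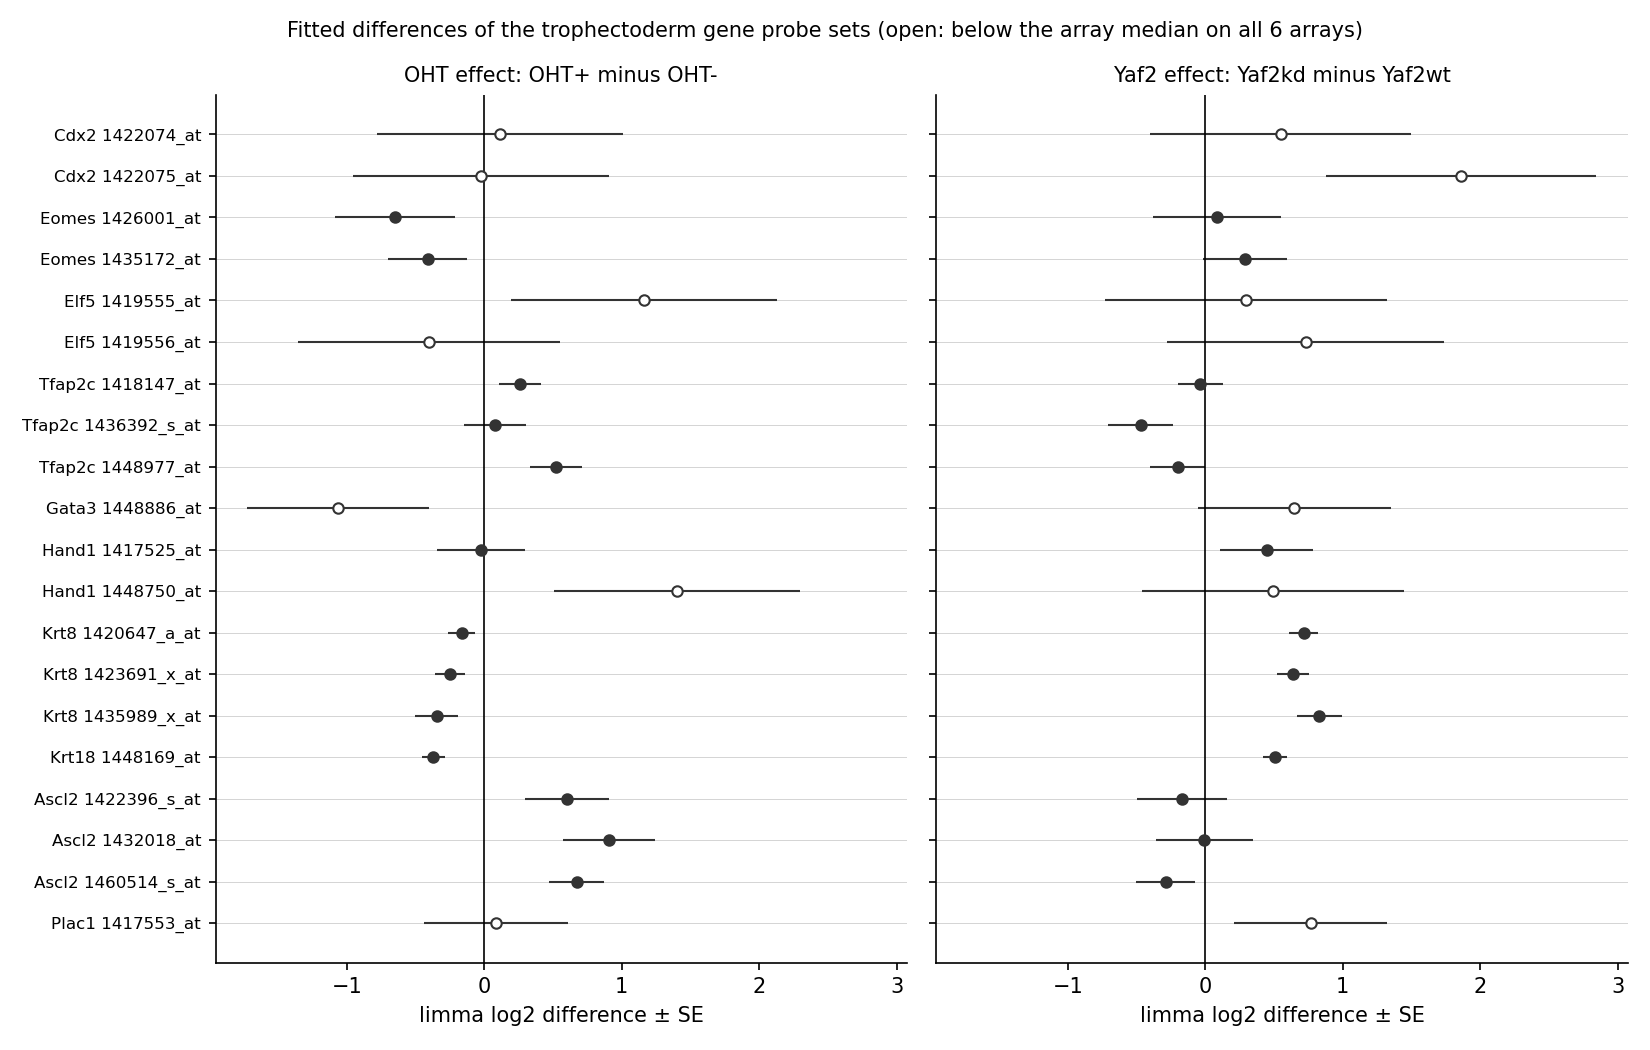
limma log2 difference with its standard error for each probe set, on the left OHT+ minus OHT- over the 3 clones and on the right Yaf2kd minus Yaf2wt with OHT as a term; open symbols are below the array median on all 6 arrays. The 4 keratin probe sets lie right of 0 in the Yaf2 effect and left of 0 in the OHT effect, and the open symbols have the widest bars.

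The keratins, which pair into the intermediate filaments of the trophectoderm epithelium, set the Yaf2kd arrays apart from the Yaf2wt arrays. Krt18 was at 4318 and 3954 on the Yaf2kd OHT+ arrays and 5630.5 and 5223 on the Yaf2kd OHT- arrays (clone 3086 first), against 2973 on the Yaf2wt OHT+ array and 3740.0 on the Yaf2wt OHT- array. The lowest Yaf2kd value was above the highest Yaf2wt value, so the groups did not overlap. Krt18 averaged 4782 ± 778 on Yaf2kd arrays (SD, n = 4 arrays of 2 clones) and 3357 ± 542 on Yaf2wt arrays (SD, n = 2 arrays of 1 clone). These SDs include the difference with OHT, and that of Yaf2wt is not a spread between clones. The ratio of geometric means was 1.42-fold, and the limma difference was 0.51 ± 0.09 (log2 ± SE, adjusted p 0.232). That fit counts the arrays of 1 clone as independent.

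Krt8, the type II partner of Krt18, showed the same order in all 3 of its probe sets. Its probe set 1420647_a_at was at 1805 and 1549 on the Yaf2kd OHT+ arrays and 1827 and 1825 on the Yaf2kd OHT- arrays, against 979 (Yaf2wt OHT+) and 1155 (Yaf2wt OHT-). Its mean was 1751 ± 135 on Yaf2kd arrays (SD, n = 4 arrays of 2 clones) and 1067 ± 124 on Yaf2wt arrays (SD, n = 2 arrays of 1 clone). The ratio was 1.64-fold, with a limma difference of 0.72 ± 0.11 (adjusted p 0.205). The probe set 1423691_x_at gave 1.56-fold (0.64 ± 0.12, adjusted p 0.232) and 1435989_x_at gave 1.78-fold (0.83 ± 0.17, adjusted p 0.280). The ending _x_at marks probe sets with probes that can match other transcripts, and the pairwise correlations of the 3 over the 6 arrays were 0.953 to 0.986, as a description. In all, 5 of the 20 probe sets had every Yaf2kd array above both Yaf2wt arrays (the 4 keratin ones and the dim Cdx2 probe set 1422074_at), and 0 had every Yaf2kd array below. Over all probe sets 9.16% were above and 9.00% below without overlap, and the 3 Krt8 probe sets are 1 gene. The adjusted p of the 4 keratin probe sets in the Yaf2 effect lay between 0.0780 and 0.999 over the alternatives run, with the same sign in each. Yaf2wt is a single clone, so the spread among Yaf2wt clones is not known.

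Within each clone the keratins were slightly lower with OHT. The Krt18 difference within a clone (log2, OHT+ minus OHT-) was -0.38, -0.40 and -0.33 in clones 3086, 3087 and 3031. The 3 values are close to each other, and the OHT effect was -0.37 ± 0.08 (log2 ± SE, adjusted p 0.226, and between 0.127 and 0.758 over the alternatives), a ratio of 0.773. Krt18 averaged 3749 ± 696 on OHT+ arrays and 4865 ± 995 on OHT- arrays (SD, n = 3 each), and the OHT+ and OHT- arrays overlap. These SDs and the overlap include the difference between Yaf2kd and Yaf2wt arrays, and are not the spread of the differences within a clone. For Krt8 the 3 probe sets were lower with OHT in all 3 clones, at -0.16 ± 0.10, -0.25 ± 0.11 and -0.35 ± 0.16 (adjusted p 0.610 to 0.736), and clone 3086 was near 0 with -0.0173, -0.0879 and -0.0138. With both conditions set together, Krt8 1420647_a_at was 0.53 ± 0.17 higher in Yaf2kd OHT+ than in Yaf2wt OHT- (adjusted p 0.759) and Krt18 0.14 ± 0.14 (adjusted p 0.924). These 4 keratin probe sets are all of those that were lower with OHT in all 3 clones among the 20, where 16.2% of all probe sets were lower in all 3, and 5 of the 20 were higher in all 3, where 15.0% of all were.

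Ascl2, an imprinted bHLH factor gene that the spongiotrophoblast needs, was higher with OHT in every clone by all 3 of its probe sets. Its brightest probe set, 1460514_s_at, was at 347, 286 and 326 on the OHT+ arrays of clones 3086, 3087 and 3031, against 157, 200.6 and 255 on their OHT- arrays. Like 1422396_s_at, it has the ending used where probes may be shared by several transcripts. The lowest OHT+ value was above the highest OHT- value, so the groups did not overlap. Its mean was 320 ± 30.8 on OHT+ arrays and 204 ± 49.2 on OHT- arrays (SD, n = 3 each), 1.59-fold, with an OHT effect of 0.67 ± 0.20 (adjusted p 0.405, and between 0.226 and 0.754 over the alternatives).

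The size of the Ascl2 difference varied between the clones. For 1460514_s_at it was 1.15, 0.51 and 0.35 (log2) in clones 3086, 3087 and 3031. The probe set 1422396_s_at had 1.43, 0.20 and 0.18 in the same order (OHT effect 0.60 ± 0.31, adjusted p 0.675), and 1432018_at had 1.25, 1.22 and 0.24 (0.90 ± 0.33, adjusted p 0.538). Without the OHT- array of clone 3086 the effect of 1422396_s_at was 0.28. The Yaf2wt clone had the smallest difference in each. The direct comparison of the OHT effects by Yaf2 status gave 0.48 ± 0.45, 0.63 ± 0.68 and 1.00 ± 0.69 for 1460514_s_at, 1422396_s_at and 1432018_at. It rests on 1 array in each Yaf2wt group, and its adjusted p was at the upper limit for every probe set tested. It therefore cannot show whether the OHT effect on Ascl2 depends on Yaf2 status. The probe set 1432018_at was at 59.3, 76.9 and 95.9 on the OHT- arrays, so its size is uncertain, and clone 3086 without OHT had the lowest value in all 3. Yaf2 status itself left Ascl2 with no steady difference, at -0.29 ± 0.21, -0.17 ± 0.33 and -0.00577 ± 0.36 for the same order of probe sets.

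**Figure D3:**
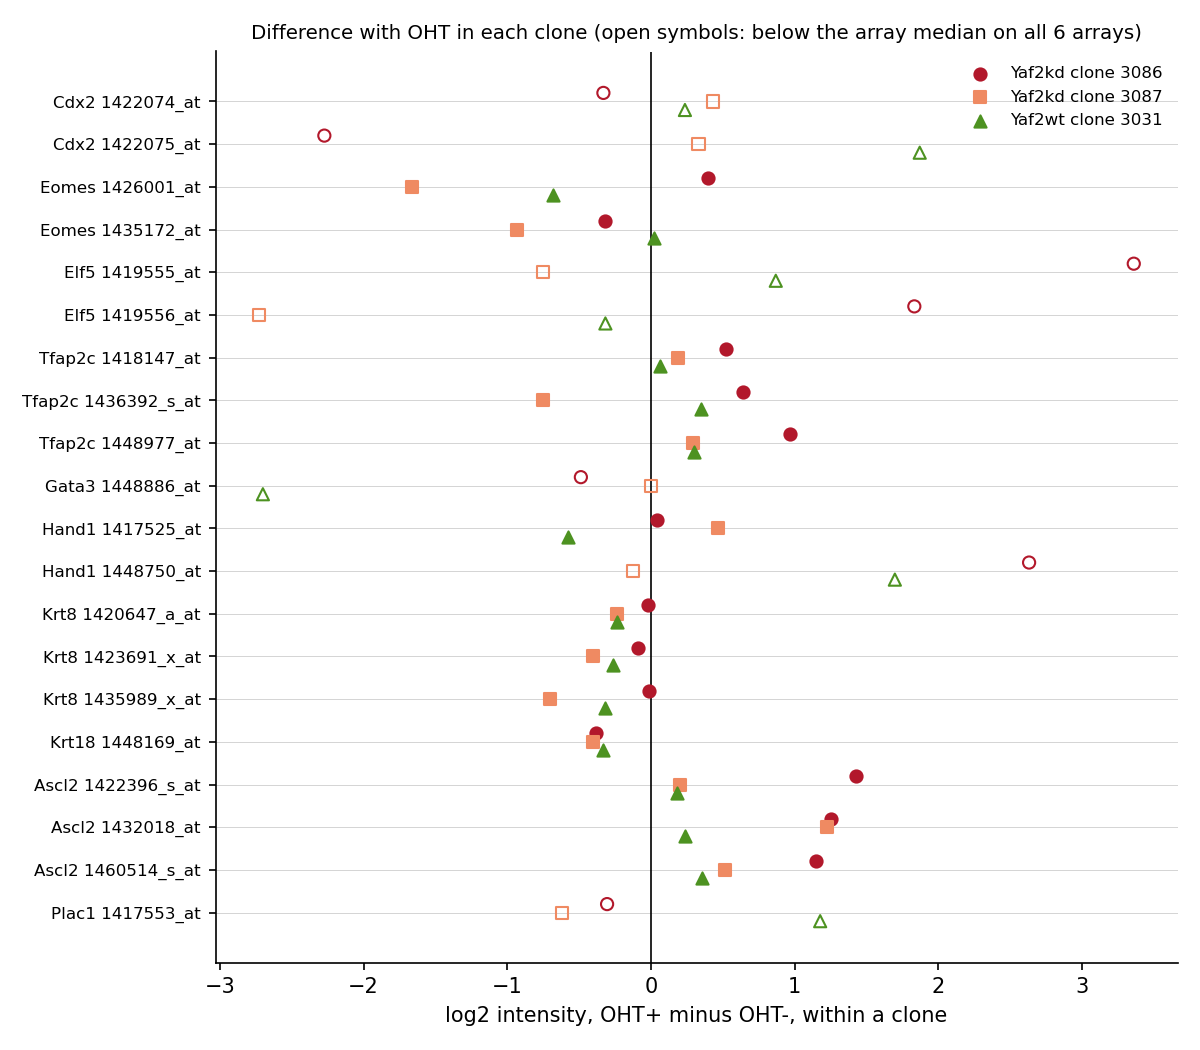
Difference in log2 intensity with OHT (OHT+ minus OHT-) within each of the 3 clones for every probe set; open symbols are below the array median on all 6 arrays. The Ascl2 symbols lie right of 0 and the keratin symbols left of 0 in all clones, while the second Cdx2 and second Elf5 probe sets scatter to both sides of 0 by over 1 log2 unit.

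Because the 2 members with the lowest p in the OHT effect were Krt18 and Ascl2, their promoters are shown, from 250 bases before to 50 after the RefSeq start in build GRCm38.p6. The capitals mark TCCCGC, the core of sites bound by E2F family factors. The Ascl2 stretch is chr7:142969215-142969514 on the minus strand and the Krt18 stretch chr15:102027966-102028265 on the plus strand.
Ascl2: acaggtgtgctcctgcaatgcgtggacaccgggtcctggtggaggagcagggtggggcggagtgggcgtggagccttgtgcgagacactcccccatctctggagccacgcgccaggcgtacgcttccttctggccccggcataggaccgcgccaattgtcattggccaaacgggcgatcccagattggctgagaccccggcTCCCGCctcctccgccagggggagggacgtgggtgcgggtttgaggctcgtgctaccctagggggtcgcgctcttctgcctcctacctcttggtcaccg
Krt18: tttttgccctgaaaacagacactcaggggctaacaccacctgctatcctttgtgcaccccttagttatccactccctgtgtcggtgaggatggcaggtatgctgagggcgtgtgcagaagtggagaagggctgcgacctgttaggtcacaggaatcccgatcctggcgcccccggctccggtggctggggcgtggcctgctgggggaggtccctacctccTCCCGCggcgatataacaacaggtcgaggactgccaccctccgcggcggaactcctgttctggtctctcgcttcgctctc
The match begins 49 bases before the start in Ascl2 and 30 bases before it in Krt18, on the strand of the gene in both. Promoters were found for 8 of the 10 genes (10 promoters, 2 each for Elf5 and Plac1). On either strand 5 of these 10 held TCCCGC, namely those of Gata3, Ascl2 and Krt18 and 1 each of Elf5 and Plac1, and 20.0% of all 32851 promoters of this length held it. The E-box CACGTG was in 0 of the 10 and in 7.15% of all. The motif thus stood in the promoter of a gene that was higher with OHT, of 1 that was lower, and of 3 that are dim.

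Tfap2c, an AP-2 factor gene of trophectoderm and germ cells, was bright in all 4 groups and its probe sets disagreed. The probe set 1448977_at was at 867, 939 and 924 on the OHT+ arrays of clones 3086, 3087 and 3031, against 443, 767 and 750.4 on the OHT- arrays. The groups did not overlap, and 1418147_at followed the same order with 622, 684 and 604 on OHT+ arrays, against 432, 600.1 and 577 on OHT- arrays. Their OHT effects were 0.52 ± 0.19 (1.43-fold, adjusted p 0.534) and 0.26 ± 0.16 (1.20-fold, adjusted p 0.729), and the 2 correlated at 0.968 over the 6 arrays. Without the OHT- array of clone 3086 the effects were 0.26 and 0.0968. The third, 1436392_s_at, an ending used where probes may be shared by several transcripts, was at 1714, 881 and 1958 with OHT, against 1099, 1485 and 1536 without it, so clone 3087 went the other way (-0.75, with 0.64 in clone 3086 and 0.35 in clone 3031). Its OHT effect was 0.0796 ± 0.22 (adjusted p 0.957), and it correlated with the others at 0.104 and 0.300. The 3 Ascl2 and 2 Tfap2c probe sets are the 5 of 20 with every OHT+ array above every OHT- array, where 6.13% of all probe sets had this order, and 0 of 20 had the reverse order (6.40% of all).

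Eomes, the T-box factor gene of the trophoblast stem cell and also of the primitive streak, lay around the array median. Its probe set 1435172_at was at 144, 93.1 and 119 on the OHT+ arrays of clones 3086, 3087 and 3031, against 179.9, 178 and 117 on the OHT- arrays. The groups overlapped, with the lowest value on the OHT+ array of clone 3087 in this probe set and in 1426001_at (147, 44.2 and 74.6 with OHT, against 111, 140.3 and 120 without it). The OHT effects were -0.41 ± 0.29 and -0.65 ± 0.44 (adjusted p 0.770 and 0.759). Hand1, a bHLH factor gene of trophoblast giant cells and of early mesoderm, had 1417525_at at 128, 126 and 70.0 on the OHT+ arrays, against 124, 91.5 and 104 on the OHT- arrays, with an OHT effect of -0.0233 ± 0.32 (adjusted p 0.992). The other Hand1 probe set, 1448750_at, was at 83.3, 9.79 and 23.7, against 13.4, 10.7 and 7.31, and did not follow the first (correlation 0.103).

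The master regulator gene Cdx2 was not seen above the dim range in any group. Its brighter probe set was at 8.48, 57.1 and 16.2 on the OHT+ arrays of clones 3086, 3087 and 3031, against 41.0, 45.4 and 4.44 on the OHT- arrays, and the other stayed between 3.42 and 6.86. Clone 3086 was lower and clone 3031 higher with OHT by the brighter one, and the fit gave -0.0241 ± 0.93 (adjusted p 0.997). With Yaf2 status the same probe set was at 1.86 ± 0.98 (adjusted p 0.620), where every value is dim.

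Elf5, an ETS factor gene that closes the trophoblast circuit with Cdx2 and Eomes and whose promoter is methylated in mouse embryonic stem cells, ranged from 3.18 to 32.7 by 1419555_at and from 5.12 to 33.9 by 1419556_at. The highest OHT+ value of both came from clone 3086, at 32.7 and 33.6, but 1419556_at was as high (33.9) on the OHT- array of clone 3087. Gata3, a GATA factor gene that acts beside Cdx2, was at 29.1, 37.0 and 8.93 on the OHT+ arrays, against 40.9, 37.0 and 58.1 on the OHT- arrays, and the Yaf2wt clone held both its lowest and its highest value. Its OHT effect was -1.06 ± 0.66 (adjusted p 0.740). Plac1 was at 45.4, 46.0 and 47.4 on the OHT+ arrays, against 56.1, 70.7 and 21.0 on the OHT- arrays, an OHT effect of 0.0845 ± 0.52 (adjusted p 0.984). For Cdx2, Elf5, Gata3 and Plac1 a change within the dim range could not be resolved at this spread, and these arrays do not show that the genes were silent.

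Further trophoblast genes, listed from general knowledge with earlier results of these data known, gave the context. Of 47 listed genes 40 had a probe set annotated to them alone, with 84 probe sets, of which 25 were below 102 on all 6 arrays. In the OHT effect 3 probe sets of 2 genes rose, 0 fell and 81 were not called, with a median of 0.15 (log2) and 50 higher and 34 lower. Among them 3 of 50 early transcription and signalling probe sets were called, 0 of 14 of the differentiated trophoblast and placenta, and 0 of 20 of the epithelium. The called ones were the probe set of Bmp4 and 2 of Ddah1, an enzyme gene. Because the list was made with earlier results known, their number is no test of that class. Over all probe sets 0.140% were called and the median was -0.00731, so a count of 0 in the small groups is near that background. Bmp4, a ligand that drives trophoblast fate when given to human pluripotent cells and is also made by the epiblast and mesoderm, was at 405, 352 and 390 on the OHT+ arrays of clones 3086, 3087 and 3031, against 142, 136 and 148 on the OHT- arrays. It rose by 1.43 ± 0.18 (log2 ± SE, adjusted p 0.0193), and the groups lay far apart.

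Ddah1, which encodes an enzyme that breaks down methylated arginine, rose by 2 of its 5 probe sets. The probe set 1455400_at was at 720, 878 and 557 on the OHT+ arrays, against 220.1, 209 and 264 on the OHT- arrays (1.62 ± 0.19, adjusted p 0.0144), and 1429298_at at 3906, 2612 and 2863, against 1344, 1216 and 1577 (1.17 ± 0.16, adjusted p 0.0240). In both of these OHT+ was above OHT- in all clones. The dimmest Ddah1 probe set, 1434519_at, was at 110, 119 and 95.4 on the OHT+ arrays, against 140, 21.2 and 96.3 on the OHT- arrays, and was lower with OHT in clones 3086 and 3031 (0.70 ± 0.62 in the fit, adjusted p 0.827). With the clone as a block a further Ddah1 probe set, 1454995_at (1.06 ± 0.19, adjusted p 0.113), passed at an adjusted p of 0.0212. Without the intensity trend limma called none of the 3, with adjusted p of 0.365 for Bmp4 and 0.465 and 0.549 for Ddah1. Leaving out single arrays also ended calls: Bmp4 was called in 5 of 11 alternatives, Ddah1 1455400_at in 7 of 10 and 1429298_at in 4 of 11.

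Among probe sets that were not dim in both OHT groups, the largest OHT differences not called were those of the Ddah1 probe sets 1429299_at (1.15 ± 0.25, adjusted p 0.207) and 1454995_at (given above) and of the X-linked homeobox genes Rhox9 (1.09 ± 0.22, adjusted p 0.169) and Rhox6 (1.03 ± 0.26, adjusted p 0.307), both expressed in placenta and germ cells. Rhox9 was at 357, 510 and 292 on the OHT+ arrays, against 158, 193 and 179.7 on the OHT- arrays, without overlap. For Yaf2 status 0 of the 84 probe sets were called. At an unadjusted limma p under 0.05 there were 8 of 84, where 8.95% of all probe sets were. In the OHT effect there were 20 of 84, where 7.99% of all were. The list was made with earlier results known, so these counts are no test. Among those not dim in both Yaf2 groups the largest difference was that of Krt19, another keratin of simple epithelia. Next were Rhox6 (0.68 ± 0.28, adjusted p 0.535), Cited1 (0.63 ± 0.32, adjusted p 0.603) and Esx1 (0.60 ± 0.18, adjusted p 0.403). Krt19 was at 488, 368, 392 and 301 on the Yaf2kd arrays, against 184 and 203 on the Yaf2wt arrays, also without overlap (0.98 ± 0.21, adjusted p 0.295). Krt7, picked out after its values were seen as the partner keratin of trophoblast, differed in the other condition: it was at 378, 401 and 331 on the OHT+ arrays, against 219, 167 and 226 on the OHT- arrays (0.87 ± 0.19, adjusted p 0.226), with a Yaf2 effect of -0.0014 ± 0.20. Atp1b1, also on the epithelium list, went the other way with OHT. Its probe sets 1423890_x_at (-0.54 ± 0.13, adjusted p 0.271), 1451152_a_at (-0.46 ± 0.11, adjusted p 0.246) and 1439036_a_at (-0.25 ± 0.08, adjusted p 0.439) were lower without overlap. The probe set 1418453_a_at was lower with overlap (-0.24 ± 0.10, adjusted p 0.592), and the dim 1455949_at was at 0.0755 ± 0.48. For the difference of the OHT effects, probe sets at or above the array median on at least 1 array were ranked. The largest were Dlx3 1422037_at (1.71 ± 1.30), Ddah1 1434519_at (1.08 ± 1.39), Gata2 1428816_a_at (1.02 ± 0.79) and Cited1 (0.95 ± 0.61), all imprecise. In the combined loss the largest among probe sets not dim in both groups were Rhox6 (1.64 ± 0.43, adjusted p 0.712), Ddah1 1455400_at (1.59 ± 0.25, adjusted p 0.386), the homeobox gene Esx1 of the labyrinth (1.38 ± 0.29, adjusted p 0.668) and Bmp4 (1.35 ± 0.31, adjusted p 0.696), with 0 called.

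**Figure D4:**
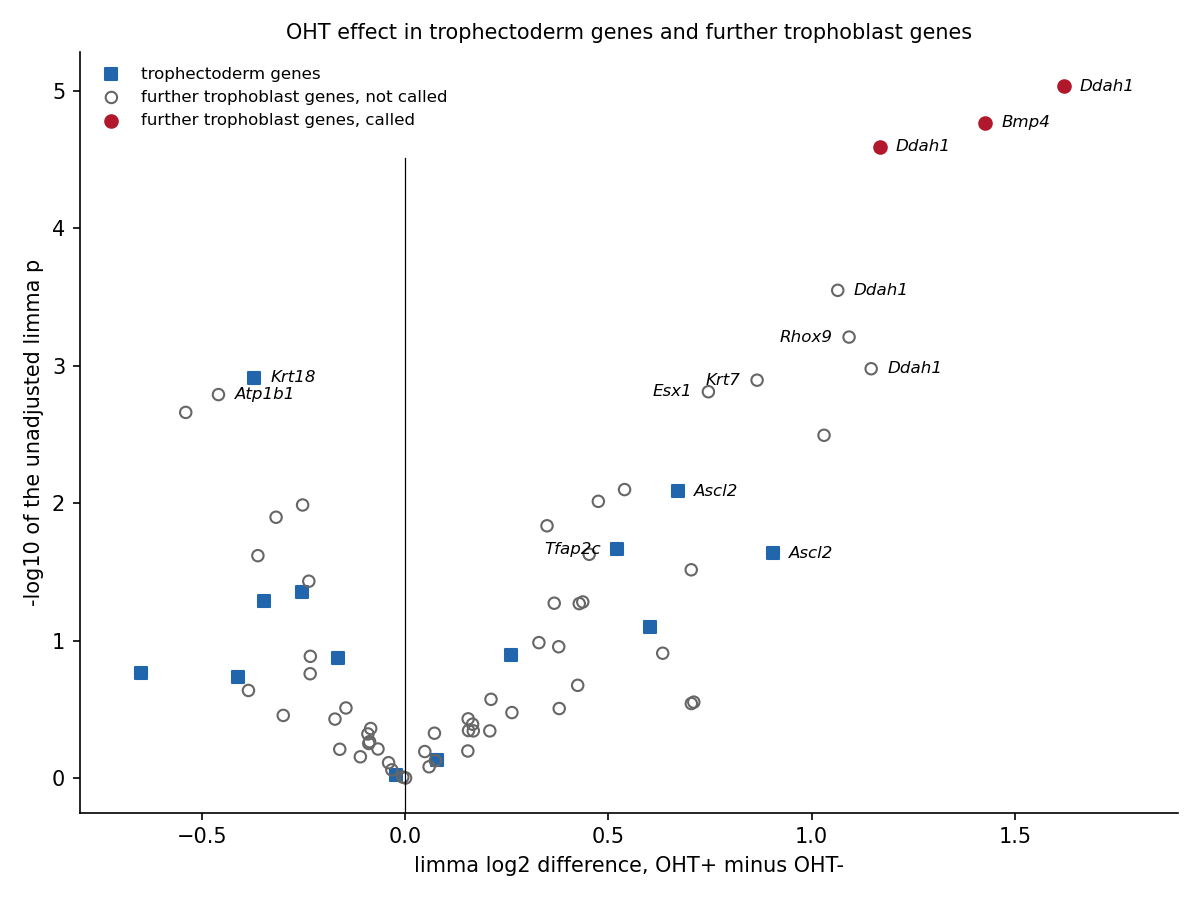
Fitted OHT difference (limma log2, OHT+ minus OHT-) against -log10 of the unadjusted p, for probe sets above the array median on at least 1 array; squares are the trophectoderm genes, open circles the further genes not called and filled circles those called. Bmp4 and 2 Ddah1 probe sets stand apart at the upper right, and Ascl2, Tfap2c and Krt18 lie lower.

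The probe sets that most resembled the 2 members named above over the 6 arrays were looked up among 19385 bright probe sets with 1 gene symbol. For Krt18 these belonged to Nr2c2ap, Emc8 and Relt (Pearson r of log2 intensity 0.996, 0.994 and 0.992), and for Ascl2 to Il17b, Tbx4 and Tgfbi (0.984, 0.983 and 0.982). Relt was at 221, 211, 251 and 234 on the Yaf2kd arrays, against 181 and 206 on the Yaf2wt arrays, and Tgfbi at 439, 323 and 344 on the OHT+ arrays of clones 3086, 3087 and 3031, against 171, 237 and 286 on the OHT- arrays. With 6 arrays and this many probe sets such values are found for many patterns, and they are given as a description.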

How the data were processed

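Total RNA was labelled with biotin and hybridised to Affymetrix mouse arrays. The deposited table holds linear intensity values of 45101 probe sets, taken as linear because they run from 0.140 to 45795, with the same sorted values on every array (tolerance 1e-06), as quantile normalization leaves; Affymetrix Expression Console and RMA are named in the submitters' processing notes, with versions not given in the sources used here. Here 64 control probe sets were left out and log2 intensity went into limma 3.58.1 (R 4.3.3; lmFit, then eBayes with an intensity trend), over 45037 probe sets, with Benjamini-Hochberg adjustment and a threshold of 0.05. The trend was chosen, with earlier fits known, because dim probe sets vary far more. The OHT and Yaf2 effects are coefficients of 1 additive model (3 residual degrees of freedom), the combined loss and the difference of the OHT effects from a model of the 4 groups (2), which takes the spread from the Yaf2kd groups for the lone Yaf2wt arrays too. Each fit was tested on simulated data with independent arrays, no clone effect, and a shift of bright probe sets larger than any difference of the bright members. That check does not cover arrays paired by clone or smaller shifts. The number of arrays limits the precision.

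Probe sets were named from the platform annotation: 34945 had 1 gene symbol, 932 several and 9160 none. Every member probe set is reported. Of further trophoblast genes, those called are named, and up to 4 more per comparison by size. These were taken among probe sets with a mean of at least the array median in 1 of the compared groups (dim ones, some with larger differences, are not named). For the difference of the OHT effects, 1 array at or above the median was enough. Krt7 and Atp1b1 are given outside this rule. Members, lists and tests were chosen with earlier results of these data known. Replicates are clones per the labels, so p-values measure the spread between these samples. The main fits have no clone term, so the OHT+ and OHT- arrays of 1 clone count as independent. The OHT+ and OHT- arrays of 1 clone are pairs: the difference between clones 3086 and 3087 correlated between OHT+ and OHT- arrays at r 0.155 over 22060 bright probe sets. Alternatives were no trend, no dim probe sets, log2(intensity + 16), the brightest probe set per gene, the clone as a replicate block and each array left out.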

Additional observations from a re-analysis of the deposited data

How the results depend on the processing

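No trophectoderm gene probe set was called under any alternative run in any of the 4 comparisons, and the lowest adjusted p was 0.127 in the OHT effect, 0.0780 in the Yaf2 effect, 0.562 in the combined loss and 0.618 in the difference of the OHT effects. The sign held in every alternative for 14 of the 20 probe sets in the OHT effect, 11 in the Yaf2 effect, 16 in the combined loss and 9 in the difference. Over all probe sets, the OHT effect had 63 calls, against 0 without the intensity trend (2956 at an unadjusted p under 0.05), 97 with dim probe sets left out, 101 with the clone as a replicate block, and 14 to 53 with single arrays left out. The fewest, 14, were left without the Yaf2wt OHT+ array; 17 each without the Yaf2wt OHT- array and the Yaf2kd OHT+ array of clone 3087, and 21 without the Yaf2kd OHT+ array of clone 3086. The Yaf2 effect had 0 calls, against 1 with dim probe sets left out and 0 to 8 with single arrays left out, the 8 without the Yaf2kd OHT- array of clone 3086. The combined loss had 2, against 0 without the trend, 14 with dim probe sets left out, 4 with the brightest probe set per gene and 0 to 7 with single arrays left out, 0 without either Yaf2kd OHT+ array and 7 without either Yaf2kd OHT- array. The difference of the OHT effects had 0 in each. The cause of these shifts was not tested. The replicate block changed no call of the 20 probe sets (Krt18 in the OHT effect, adjusted p 0.128); it could not be fitted for the combined loss. Signal over background limits the dim members.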
